A study of Mus musculus with 6 samples.

Results

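Translation initiation factors are the proteins that bring the initiator transfer RNA, the small ribosomal subunit and the capped messenger RNA together and find the start codon. Their genes were taken here as every transcript row that RefSeq names with a mouse symbol starting Eif1 to Eif6, leaving out the eIF2 kinases (Eif2ak), the eIF4E-binding proteins (Eif4ebp) and the exon junction helicase Eif4a3. This gave 70 transcript rows for 47 genes, out of 20263 named genes in the table, and the row with the highest 6-array mean stood for its gene. Of the 48 protein-coding symbols that meet the rule, Eif3j2 alone had no row. All 47 members were tested, with no filter on low values.

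The series profiled neural stem cells from CD-1 albino mouse embryos at stage E14.5, kept as proliferating neurospheres. One group was nucleofected with a miR-128 mimic and the other with miR-Control, each in 3 biological replicates, and total RNA taken 72 h later was hybridised to exon arrays. These cells do not normally express miR-128, according to the series text, so the mimic is its source here; what share of the cells took it up is not given in the sources used here. The values are log2 levels made by the authors with RMA, and differences are miR-128 minus miR-Control, tested with limma over all 32025 rows.

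In initiation, eIF2 carries the initiator transfer RNA to the small ribosomal subunit in a GTP-bound state, and eIF2B recharges eIF2 with GTP after each round. The large eIF3 assembly, eIF1 and eIF1A hold the small subunit open for scanning, while eIF4E binds the cap, eIF4G bridges cap and ribosome, and the helicase eIF4A with eIF4B and eIF4H unwinds the leader. eIF5 triggers GTP hydrolysis on eIF2 at the start codon, eIF5B joins the large subunit, and eIF6 keeps free large subunits apart from small ones. Proliferating stem cells depend on this machinery for growth, and eIF2 and eIF4E are the steps best known to be regulated.

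The mimic was labelled miR-128 without the arm. The main mature strand of both mouse loci, Mir128-1 (chr1:128202404-128202424, plus strand) and Mir128-2 (chr9:112118644-112118664, minus strand), has the same RefSeq sequence on GRCm38.p6. It is shown because its seed, bases 2 to 8 in capitals, sets which transcripts a microRNA can pair with; target sites in the transcripts of the members were not analysed here.
mmu-miR-128-3p: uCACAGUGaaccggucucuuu

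RefSeq promoter windows on GRCm38.p6 were found for 38 of the 47 members and were read over the 250 bases before the start. The E-box CACGTG, a palindrome read on both strands, lay in 9 of these 38 windows (23.7%), in 6.86% of the 27025 genes with a window and in 8.18% of the 15843 of them with a row on the array. The 9 were Eif1b, Eif3f, Eif3k, Eif4a1, Eif4e, Eif4g1, Eif4h, Eif5a and Eif5a2. Of these, 7 had lower and 2 higher values with miR-128, where 33 of all 47 members (70.2%) had lower values. CCAAT on either strand (ATTGG) lay in 13 member windows (34.2%) and in 39.1% of the genes with a row, TATAAA (reverse TTTATA) in 4 (10.5%) and in 12.9%, and the palindromic NRF1 motif in 1, that of Eif3k (2.63%), and in 1.31%. Below are the windows of the 2 members of smallest p, both lower with miR-128, and of Eif4a1, the member with the highest difference, with motif letters in capitals. Eif5b lies at chr1:37997760-37998009, plus strand, Eif3a at chr19:60790694-60790943, minus strand and Eif4a1 at chr11:69672424-69672673, minus strand. None of these motifs was in the windows of Eif5b and Eif3a, nor in that of Eif2s3x, and the Eif4a1 window held an E-box that begins 189 bases before the start and CCAAT boxes that begin 92 and 43 bases before it, with no overlap between them.
Eif5b: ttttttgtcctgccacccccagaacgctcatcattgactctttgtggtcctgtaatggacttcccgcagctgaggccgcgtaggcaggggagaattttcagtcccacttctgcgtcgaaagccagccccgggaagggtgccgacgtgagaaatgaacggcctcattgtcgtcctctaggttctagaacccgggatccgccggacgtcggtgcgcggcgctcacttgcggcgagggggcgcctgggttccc
Eif3a: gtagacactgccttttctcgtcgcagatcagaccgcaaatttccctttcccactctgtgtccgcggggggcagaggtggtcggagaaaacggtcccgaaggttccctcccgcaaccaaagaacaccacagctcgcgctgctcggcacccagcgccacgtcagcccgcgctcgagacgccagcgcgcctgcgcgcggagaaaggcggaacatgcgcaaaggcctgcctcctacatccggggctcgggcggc
Eif4a1: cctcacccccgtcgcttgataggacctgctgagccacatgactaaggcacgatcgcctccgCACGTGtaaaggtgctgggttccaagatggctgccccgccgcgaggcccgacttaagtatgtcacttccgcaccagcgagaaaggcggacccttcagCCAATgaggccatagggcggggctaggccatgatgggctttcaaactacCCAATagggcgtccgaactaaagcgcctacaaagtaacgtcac

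Across the arrays the miR-Control replicate 3 array stood apart. Its interquartile range was 2.87, against 2.98 to 3.22 on the other 5, and its score on principal component 1 was 42.5, against -18.7 to -0.226. Pairwise correlations between arrays lay between 0.987 and 0.995, and no array repeated another. Of the 10 stem cell and radial glia markers, Vim averaged 13.56 with miR-128 and 13.57 with miR-Control, Sox2 12.04 and 11.94, and Nes 10.77 and 11.06, while Prom1 stood at 5.78 and 5.85. The 5 microglial markers averaged 4.80 to 7.31 with miR-128 and 4.77 to 7.31 with miR-Control, and the 4 vascular and mesenchymal ones 6.43 to 8.26 and 6.47 to 8.15. No detection p was used, so no marker could be called absent, and levels of different genes come from different probes.

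No member passed the test. The count was 0 of 47 at a limma adjusted p of 0.05, and the background was 0% of 20263 named genes and of 32025 rows. At an unadjusted p under 0.05 there were 5 members, or 10.6%, beside 7.13% of all named genes and 7.15% of all rows. Eif5b, Eif3a and Eif6 were lower (3 members, beside 3.39% of all named genes), and Eif2s3x and Eif4a1 higher (2 members, beside 3.74%). The 3 miR-128 arrays lay beyond all 3 miR-Control arrays in 8 members (17%), where 12.1% of all named genes did so. Of these, 3 were higher, beside 6.87% of all named genes, and 5 lower, beside 5.27%. Among the 10937 named genes above the median row level, which hold 45 of the members, 8.85% had an unadjusted p under 0.05 and 13.6% had groups apart, 832 of them lower. The members' shares lie near these and rest on few genes. The 95% intervals of the 42 other members all included 0, and the median standard error over the members was 0.13.

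Most members had lower values with miR-128, by small amounts. Lower values were found in 33 of 47 members (70.2%), against 43.8% of all named genes and 49% of the named genes above the median row level. The median difference was -0.07 over the members, 0.02 over all named genes and 0.00348 over those above the median level. Relative to the miR-Control mean of each gene, the members averaged -0.12, -0.03 and -0.10 on miR-128 replicates 1 to 3, against 0.08, 0.07 and -0.14 on miR-Control replicates 1 to 3. The miR-Control replicate 3 array was the lowest array of all, and the groups overlapped.

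**Figure D1:**
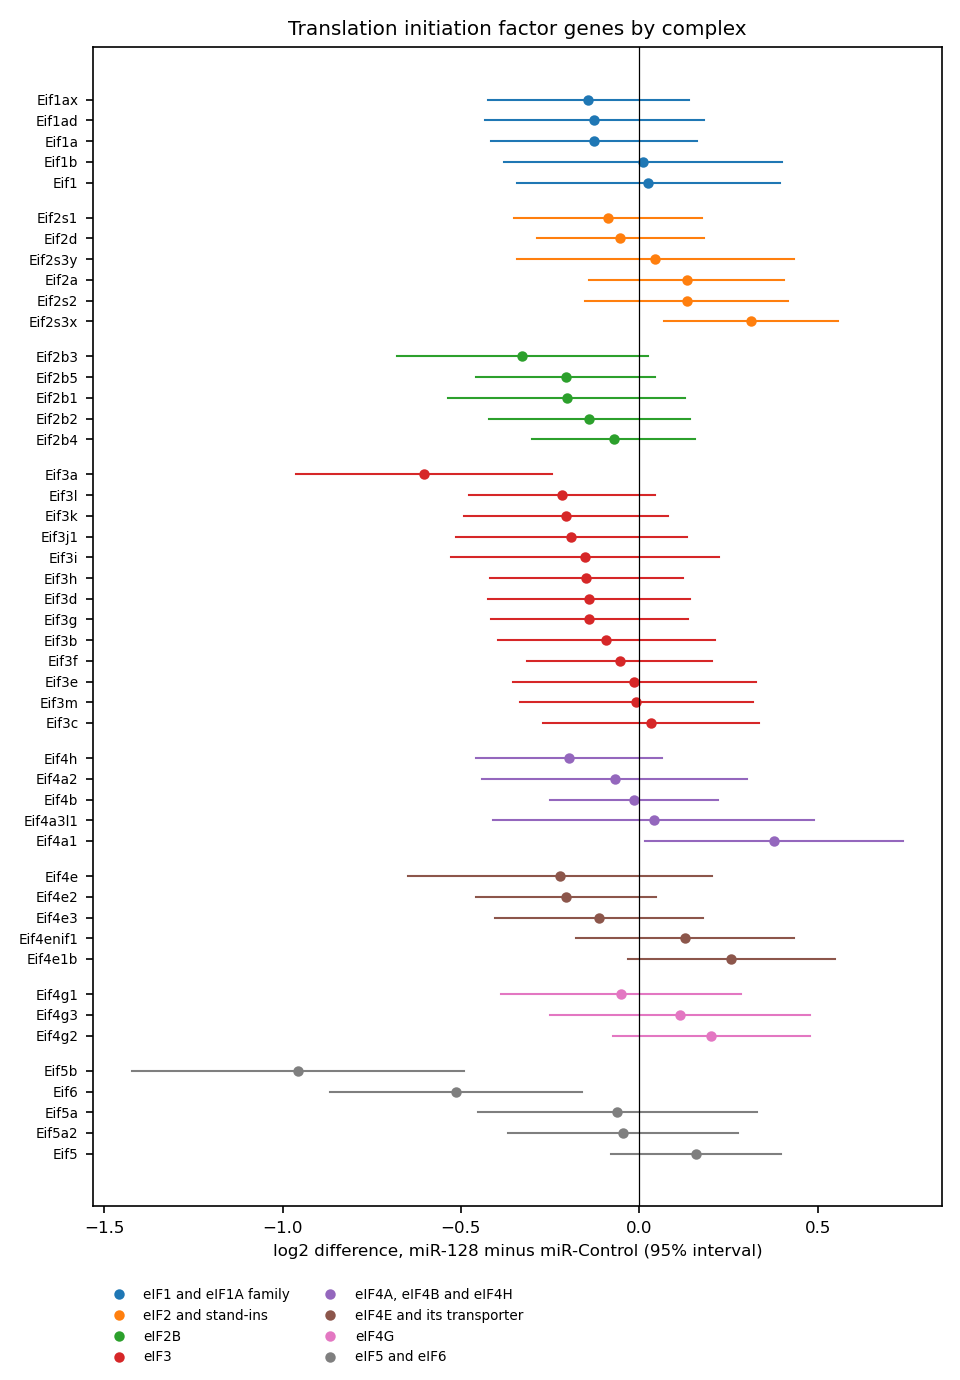
Log2 difference (miR-128 minus miR-Control, horizontal axis) of the 47 members, grouped and coloured by factor complex, with points for the estimates and lines for 95% intervals. Eif5b, Eif3a and Eif6 lie wholly below 0, Eif2s3x and Eif4a1 wholly above it, and all 5 eIF2B subunits and 12 of 13 eIF3 subunits have estimates below 0.

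The miR-Control replicate 3 array was low for nearly every member. In 44 of 47 members (93.6%) it was lower than the mean of the other 2 miR-Control arrays, with a median difference of -0.24. The same held for 47.3% of all named genes (median 0.02) and for 69.9% of those above the median level (median -0.13). Leaving this array out lowers the difference of those 44 members by construction. Without it, 36 of 47 members were lower with miR-128 (76.6%, beside 41% of all named genes and 56.6% of those above the median level), and the median difference was -0.15, against -0.07 with all arrays and -0.041 without miR-Control replicate 2. Members at an unadjusted p under 0.05 then numbered 9 (19.1%), beside 12.5% of all named genes, and 8 of them were lower, beside 6.72%. Among the 10937 genes above the median level the share was 14.8%, with 1219 genes lower. The members' 19.1% lies above this share, but it rests on only 9 genes, so little can be read from the distance. No member passed in that fit either, with a lowest limma adjusted p of 0.266, for Eif5b. The background shares without this array, and the set of genes above the median level, were added after seeing the data.

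**Figure D2:**
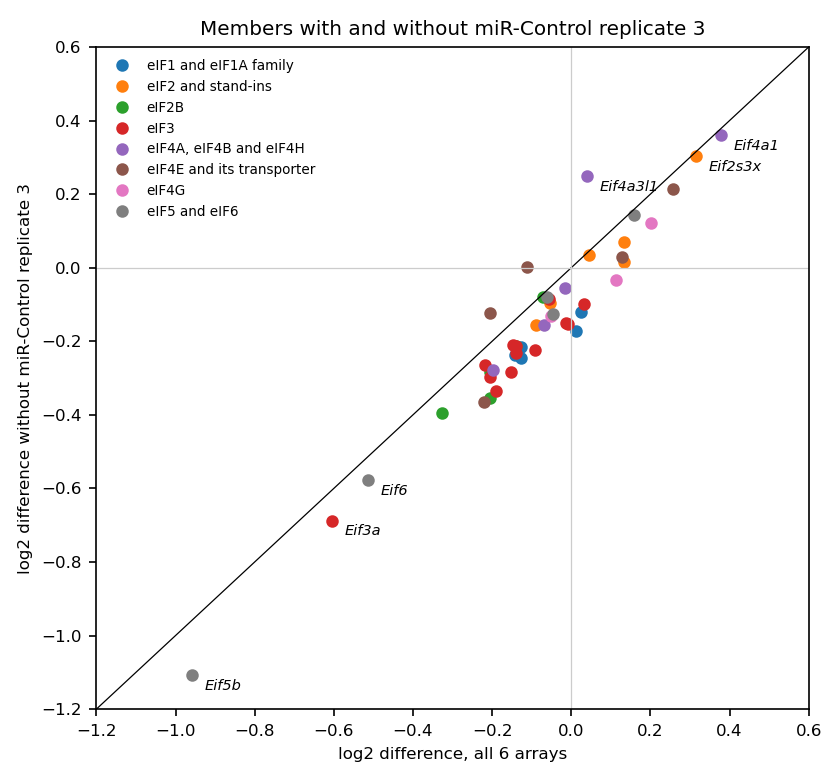
Log2 difference of each of the 47 members with all 6 arrays (horizontal axis) and without miR-Control replicate 3 (vertical axis), coloured by complex, with the line of equal values. Most points lie below the line, which follows from that array being low in 44 of the 47 members. The median is -0.07 with all arrays and -0.15 without that array.

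Of the 3 members of smallest p, Eif5b and Eif6 act on subunit joining and Eif3a belongs to eIF3. Eif5b, the GTPase that joins the large ribosomal subunit, had log2 levels of 7.67, 7.90 and 7.97 on the miR-128 arrays (replicates 1 to 3), against 9.31, 8.60 and 8.51 on the miR-Control arrays. All miR-128 values were below all miR-Control values, with miR-Control replicate 1 highest by a wide margin. The difference was -0.96 (SE 0.20, 95% interval -1.42 to -0.49, limma adjusted p = 0.352), or 1.94-fold lower, and it was -0.71 without miR-Control replicate 1 and -1.11 without miR-Control replicate 3.

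Eif6, whose product keeps large subunits from joining too early and takes part in their maturation, had 10.49, 11.09 and 10.75 on the miR-128 arrays (replicates 1 to 3), against 11.33, 11.38 and 11.16 on the miR-Control arrays. The groups did not overlap, although miR-128 replicate 2 came close to miR-Control replicate 3. The difference was -0.51 (SE 0.16, 95% interval -0.87 to -0.16, limma adjusted p = 0.512), 1.43-fold lower. With single arrays left out it ran from -0.67 (without miR-128 replicate 2) to -0.37 (without miR-128 replicate 1).

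The other genes numbered eIF5 are Eif5, the GTPase activator of eIF2, and the paralogs Eif5a and Eif5a2, whose products carry the amino acid hypusine and act mainly in elongation and termination. Eif5 had 12.02, 12.16 and 11.92 with miR-128, against 11.90, 11.88 and 11.85 with miR-Control. All its miR-128 values lay above the miR-Control values, by little, with a difference of 0.16 (SE 0.10, 95% interval -0.08 to 0.40, limma adjusted p = 0.861), or 0.095 without miR-128 replicate 2. Eif5a had 11.77, 11.97 and 11.25 with miR-128, against 11.75, 11.74 and 11.69 with miR-Control. Here miR-128 replicate 3 was far below the other 5 arrays, and the difference of -0.06 (SE 0.17, 95% interval -0.45 to 0.33, limma adjusted p = 0.988) became 0.14 without it. Its 8 distinct transcript rows gave differences of -0.22 to -0.02, all with miR-128 replicate 3 lowest. Eif5a2 had 9.60, 9.31 and 9.35 with miR-128, against 9.38, 9.72 and 9.31 with miR-Control, with overlapping groups and a difference of -0.05 (SE 0.14, 95% interval -0.37 to 0.28, limma adjusted p = 0.988). As a group these 5 genes had a median of -0.06, which was -0.14, -0.21 and -0.012 without miR-128 replicates 1, 2 and 3 and -0.13 without miR-Control replicate 3. Taking the smallest accession of each gene gave -0.22, the mean of distinct rows -0.13 and array weights -0.023. Their array means of -0.32, -0.15 and -0.38 with miR-128 lay below the 0.10, 0.03 and -0.13 with miR-Control. Eif5b and Eif6 are part of these means.

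**Figure D3:**
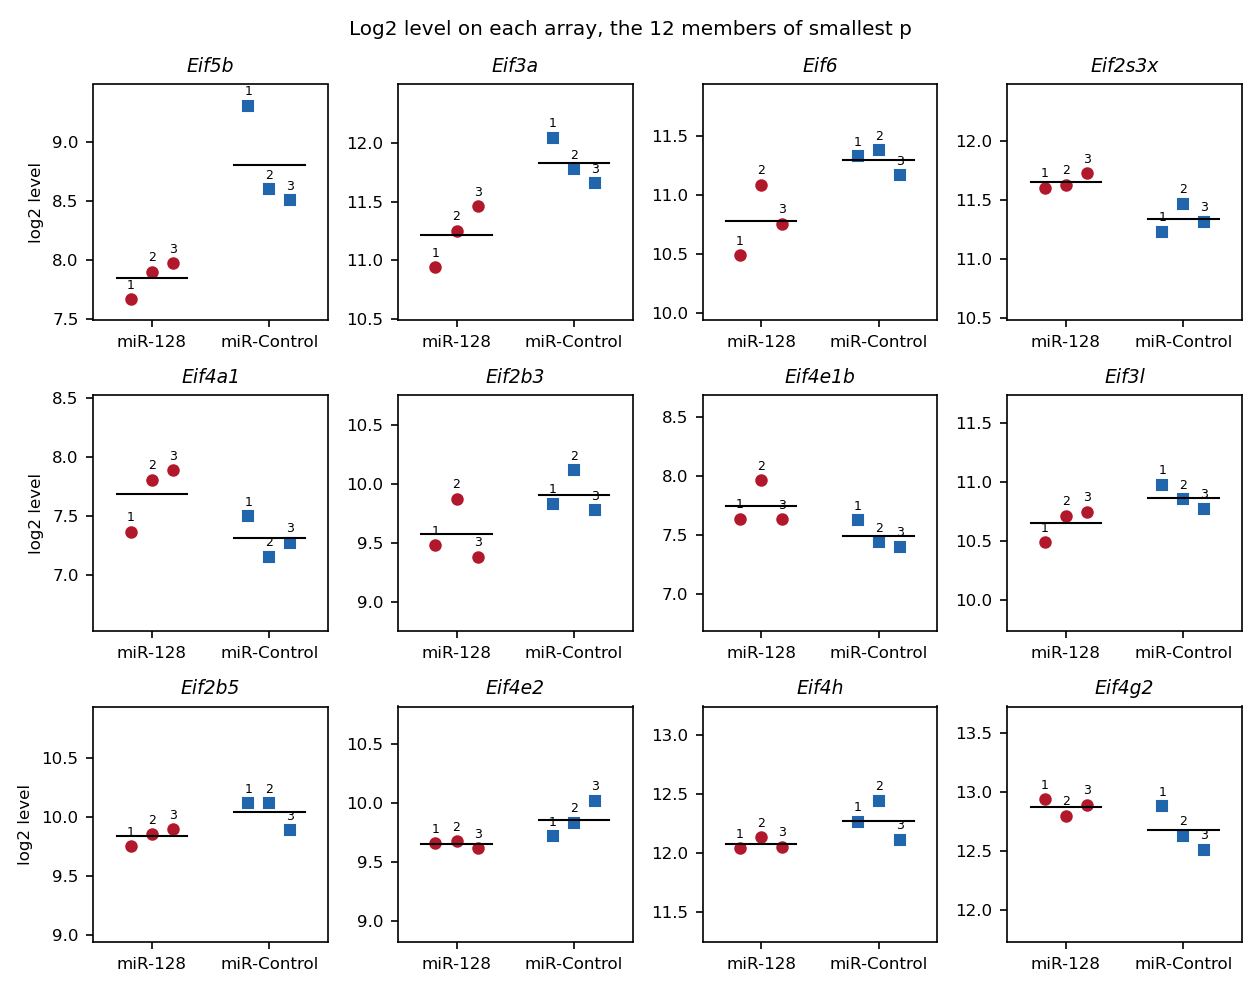
Log2 level on each array (vertical axes, each spanning the same range of log2 units) for the 12 members of smallest p, with miR-128 arrays as red circles, miR-Control arrays as blue squares, numbers for replicates and lines for group means. Eif5b, Eif3a and Eif6 have all miR-128 points below all miR-Control points, Eif2s3x has them above, and in Eif4a1 miR-128 replicate 1 lies among the controls.

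eIF3 is the largest initiation factor, a scaffold that binds the small subunit and receives the other factors. Lower values were found in 12 of its 13 measured subunits (92.3%), with a median of -0.14 and a range of -0.60 to 0.03. Eif3a, the subunit at the core of the assembly, had 10.94, 11.25 and 11.46 on the miR-128 arrays (replicates 1 to 3), against 12.04, 11.77 and 11.65 on the miR-Control arrays. The groups were apart, with miR-128 replicate 1 lowest and miR-Control replicate 1 highest. Its difference was -0.60 (SE 0.16, 95% interval -0.96 to -0.24, limma adjusted p = 0.454), 1.52-fold lower, and no other subunit was lower by more than 0.22. Without miR-128 replicate 1 the Eif3a difference was -0.47, and without miR-128 replicate 3 it was -0.72.

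Eif3l, a peripheral subunit, had 10.49, 10.72 and 10.75 with miR-128, against 10.98, 10.85 and 10.78 with miR-Control. The groups did not overlap, but little separated miR-128 replicate 3 from miR-Control replicate 3, and the difference was -0.22 (SE 0.12, 95% interval -0.48 to 0.04, limma adjusted p = 0.777), or -0.14 without miR-128 replicate 1. Eif3k, its partner in the assembly, stood at -0.21 and the loosely attached Eif3j1 at -0.19, with adjusted p of 0.829 and 0.894. Eif3i, Eif3h, Eif3d, Eif3g and Eif3b lay between -0.15 and -0.09. Eif3f, Eif3e and Eif3m lay between -0.06 and -0.00853, and Eif3c was at 0.03. The eIF3 means per array were -0.24, -0.10 and -0.10 with miR-128 and 0.14, 0.06 and -0.20 with miR-Control, so miR-Control replicate 3 overlapped the miR-128 arrays. All 13 subunits were lower on that control than on the mean of the other 2. Leaving that control out therefore moves all 13 differences down by construction. Without it all 13 were lower with miR-128, with a median of -0.22. The median was -0.071 without miR-Control replicate 1 and -0.075 without miR-128 replicate 1, so its size depends on single arrays in both directions.

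eIF2B, the exchange factor that reloads eIF2 with GTP, has 5 subunits, and all 5 had lower values with miR-128, with a median of -0.20. Eif2b3, the gamma subunit, had 9.48, 9.87 and 9.38 with miR-128, against 9.83, 10.11 and 9.77 with miR-Control. The groups overlapped through miR-128 replicate 2, and the difference was -0.33 (SE 0.15, 95% interval -0.68 to 0.02, limma adjusted p = 0.725), with -0.34 in its other row. Eif2b5, the catalytic epsilon subunit, had 9.76, 9.86 and 9.90 with miR-128, against 10.12, 10.12 and 9.89 with miR-Control, where only miR-Control replicate 3 and miR-128 replicate 3 crossed. Its difference was -0.21 (SE 0.11, 95% interval -0.46 to 0.04, limma adjusted p = 0.777). Eif2b1, Eif2b2 and Eif2b4 stood at -0.20, -0.14 and -0.07, with adjusted p of 0.884 to 0.965. The complex averaged -0.28, -0.06 and -0.23 on the miR-128 arrays, against 0.02, 0.13 and -0.15 on the miR-Control arrays. Without miR-Control replicate 3 the median was -0.28, and without miR-Control replicate 2 it was -0.09.

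Among the eIF2 subunits and their stand-ins, 4 of 6 genes had higher values, with a median of 0.09. With single arrays left out this median ran from 0.025 (without miR-Control replicate 3; 0.026 without replicate 1) to 0.18 (without miR-Control replicate 2), and it was 0.049, 0.041 and 0.15 without miR-128 replicates 1, 2 and 3. Eif2s3x, the X-linked gamma subunit that binds GTP and the initiator transfer RNA, had 11.60, 11.63 and 11.73 on the miR-128 arrays (replicates 1 to 3), against 11.23, 11.47 and 11.32 on the miR-Control arrays. The lowest miR-128 value was above the highest miR-Control value, and the difference was 0.31 (SE 0.11, 95% interval 0.07 to 0.56, limma adjusted p = 0.581), 1.24-fold higher. Its Y-linked paralog Eif2s3y had 10.29, 10.51 and 9.89 with miR-128, against 10.004, 10.38 and 10.16 with miR-Control, with a wide spread in both groups and a difference of 0.05 (SE 0.17, 95% interval -0.34 to 0.43, limma adjusted p = 0.990). How far the probes of such close copies read each other was not tested. Eif2s1, the alpha subunit that stress kinases phosphorylate, had 12.20, 12.12 and 11.997 with miR-128, against 12.19, 12.34 and 12.06 with miR-Control, with overlap and a difference of -0.09 (SE 0.12, 95% interval -0.35 to 0.18, limma adjusted p = 0.962), which ran from -0.16 without miR-Control replicate 3 to -0.014 without miR-Control replicate 2. Eif2s2, the beta subunit, was at 0.13. Eif2a, an alternative initiation factor, was at 0.13 and Eif2d, which can place transfer RNA without GTP, at -0.05.

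The scanning factors eIF1 and eIF1A, which guard the choice of start codon, had differences of -0.14 to 0.02. Eif1 had 13.10, 12.85 and 12.68 with miR-128, against 13.09, 12.91 and 12.56 with miR-Control, with full overlap and a difference of 0.02 (SE 0.16, 95% interval -0.34 to 0.39, limma adjusted p = 0.996), whose sign turned when arrays were centred or weighted. Eif1ax had 11.29, 11.35 and 11.24 with miR-128, against 11.65, 11.42 and 11.25 with miR-Control. Its difference was -0.14 (SE 0.12, 95% interval -0.42 to 0.14, limma adjusted p = 0.925), with miR-Control replicate 1 above all other arrays. It was -0.037 without that array and -0.24 without miR-Control replicate 3. Eif1a and Eif1ad, a gene with an eIF1A domain, were both at -0.13, and Eif1b at 0.01. Eif1a and Eif1ax, like Eif1 and Eif1b, are close paralogs. The 5 genes had a median of -0.13, but the mean was lowest, at -0.25, on miR-Control replicate 3, and without that array all 5 were lower with miR-128 (median -0.22). The median was -0.037 without miR-Control replicate 1 and -0.012 without miR-Control replicate 2.

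The helicase group held the member with the highest difference. Eif4a1, the main helicase that unwinds leaders, had 7.37, 7.81 and 7.89 on the miR-128 arrays (replicates 1 to 3), against 7.50, 7.16 and 7.28 on the miR-Control arrays. By mean level, 50.7% of all rows lay below its row, while 24 of the 47 members had over 90% of rows below. Both miR-128 replicates 2 and 3 were above all controls, and miR-128 replicate 1 was below miR-Control replicate 1. The difference was 0.38 (SE 0.16, 95% interval 0.02 to 0.74, limma adjusted p = 0.678), 1.30-fold higher, and 0.21 with array weights. With single arrays left out it ran from 0.28 (without miR-128 replicate 3) to 0.54 (without miR-128 replicate 1). Its limma unadjusted p of 0.043 depended on the processing. This p was 0.061 with quantile normalization and 0.23 with array weights, but 0.033 among rows above the median level. The paralog Eif4a2 was at -0.07 and its 3 rows gave -0.07 to -0.05, with miR-128 replicate 3 lowest in each. The cofactor Eif4h had 12.04, 12.13 and 12.05 with miR-128, against 12.26, 12.44 and 12.11 with miR-Control. Only miR-128 replicate 2 and miR-Control replicate 3 crossed, and the difference was -0.20 (SE 0.11, 95% interval -0.46 to 0.06, limma adjusted p = 0.813), or -0.11 without miR-Control replicate 2. Eif4b was at -0.02. The row of Eif4a3l1, a gene resembling the exon junction helicase, was at 0.04, with only 21.4% of all rows below it in mean level.

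Among cap-binding proteins, Eif4e, the canonical one, had 8.44, 9.07 and 8.56 on the miR-128 arrays (replicates 1 to 3), against 9.06, 9.04 and 8.62 on the miR-Control arrays. The groups interleaved, with miR-128 replicate 2 at the top and replicate 1 at the bottom, and the difference was -0.22 (SE 0.19, 95% interval -0.65 to 0.20, limma adjusted p = 0.921). Leaving out replicate 1 gave -0.097 for the miR-128 array and -0.15 for the miR-Control array, whereas dropping miR-128 replicate 2 gave -0.41 and dropping miR-Control replicate 3 gave -0.36. Eif4e2, a relative that acts mainly in repression, had 9.66, 9.67 and 9.61 with miR-128, against 9.71, 9.83 and 10.02 with miR-Control. All miR-128 values were below the controls, here with miR-Control replicate 3 as the highest array, and the difference was -0.21 (SE 0.11, 95% interval -0.46 to 0.05, limma adjusted p = 0.781), or -0.12 without that array. Its 3 rows gave -0.25 to -0.16, and in 1 of them the groups overlapped. Eif4e1b, known as an oocyte form, had 7.64, 7.97 and 7.64 with miR-128, against 7.63, 7.44 and 7.40 with miR-Control. By mean level, 52.5% of all rows lay below this row. The groups were barely apart, and the difference was 0.26 (SE 0.13, 95% interval -0.03 to 0.55, limma adjusted p = 0.744), with 0.49 (SE 0.16, adjusted p = 0.573) in its other row and 0.15 without miR-128 replicate 2. Eif4e3 was at -0.11, and the eIF4E transporter Eif4enif1 at 0.13. The median of the 5 genes, -0.11, was 0.00124 without miR-Control replicate 3 and -0.073 without miR-128 replicate 1.

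The eIF4G scaffolds differed in sign. Eif4g1, the bridge between cap and ribosome, had 11.23, 11.17 and 11.44 with miR-128, against 11.63, 11.20 and 11.17 with miR-Control, with a difference of -0.05 (SE 0.15, 95% interval -0.39 to 0.29, limma adjusted p = 0.988), which was 0.10 without miR-Control replicate 1. Eif4g2, a relative that lacks the eIF4E-binding part and serves cap-independent initiation, had 12.94, 12.80 and 12.89 with miR-128, against 12.88, 12.63 and 12.51 with miR-Control. Only miR-Control replicate 1 reached into the miR-128 range, and the difference was 0.20 (SE 0.12, 95% interval -0.08 to 0.48, limma adjusted p = 0.824), which was 0.31 without that array and 0.12 without miR-Control replicate 3. Eif4g3 was at 0.11. The median of 0.11 turned to -0.07 with array weights and to -0.03 without miR-Control replicate 3, while leaving out miR-Control replicate 1 gave 0.26, leaving out miR-128 replicate 2 gave 0.19 and leaving out miR-128 replicate 3 gave 0.042.

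**Figure D4:**
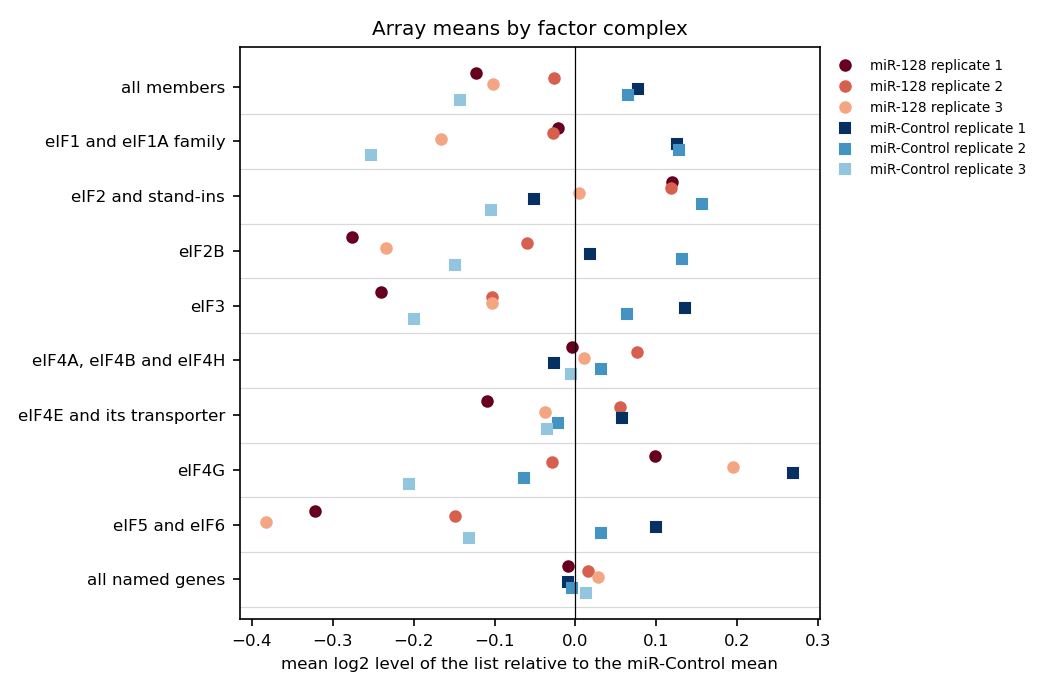
Mean log2 level of each factor complex on each array relative to the miR-Control mean of its genes (horizontal axis), with miR-128 arrays as red circles and miR-Control arrays as blue squares, beside all 47 members and all 20263 named genes. In eIF2B, eIF3 and the eIF1 family miR-Control replicate 3 lies on the side of the miR-128 arrays, while all named genes stay near 0 on every array.

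The other genes of the pathway were read from lists of relatives and partners, which held 8 relatives, 30 of 31 partners and 11 elongation and termination genes with a row. None of these 49 passed, 26 had lower and 23 higher values, the median was -0.01, and 5 had an unadjusted p under 0.05 (10.2%, beside 7.13% of all named genes). Of the partner proteins, Gigyf2, which works with Eif4e2 in repression, had 8.88, 8.65 and 8.62 with miR-128, against 9.57, 9.18 and 9.87 with miR-Control. Its difference of -0.82 (SE 0.17, limma adjusted p = 0.351) left the groups well apart. Abcf1, an eIF2-associated ATPase, was at -0.29 (adjusted p = 0.644). The elongation factor gene Eef1d was at -0.82 (SE 0.22, adjusted p = 0.456), with 8.44, 8.91 and 9.23 with miR-128, against 9.97, 9.77 and 9.30 with miR-Control. Pdcd4, an inhibitor of eIF4A, was at 0.28 (adjusted p = 0.730) and the termination factor gene Gspt1 at 0.17 (adjusted p = 0.886), both with overlapping groups.

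Among the 8 relatives that the rule leaves out, the RNA-sensing eIF2 kinase Eif2ak2 was at -0.50 (adjusted p = 0.391) and the endoplasmic reticulum kinase Eif2ak3 at 0.31 (adjusted p = 0.532), each with groups apart. Eif4ebp1, which sequesters eIF4E, was at -0.14 (adjusted p = 0.886), also with groups apart, and Eif4a3 at 0.00702 with overlapping groups. Groups were apart in 37.5% of the 8 relatives, beside 12.1% of all named genes, a share that rests on few genes. Of the phosphatase subunits that reverse eIF2 phosphorylation, Ppp1r15a was at 0.18 (adjusted p = 0.907) and Ppp1r15b at 0.12 (adjusted p = 0.929).

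Cell type markers were read on the same scale, relative to the miR-Control mean. The 10 stem cell and radial glia markers averaged 0.03, -0.10 and 0.02 on the miR-128 arrays, against 0.06, -0.04 and -0.02 on the miR-Control arrays. Among them, Fabp7 was at -0.30 (limma adjusted p = 0.641), with groups apart. Nes was at -0.30 and Notch1 at 0.28, with overlapping groups. The 5 oligodendrocyte lineage markers averaged 0.25, 0.16 and 0.30, against 0.05, -0.07 and 0.02, and the 4 astrocyte markers 0.14, 0.17 and 0.21, against -0.08, 0.00735 and 0.07. The 5 neuronal markers averaged 0.10, 0.02 and -0.03, against 0.02, 0.03 and -0.05. Their part in the differences of the initiation factors was not tested, and in bulk RNA fewer cells of a type and less RNA per cell cannot be told apart.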

How the data were processed

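Per the submitters' processing notes, the authors made the deposited log2 values with RMA and the affy package, with no versions given. Background, between-array normalization and probe summary are thus already done, and RMA tends to shrink fold changes. Column medians still differed. The sources used here give neither the probe grouping nor the build. Rows are RefSeq transcripts, and 25343 of 32025 were named, without versions, through the RefSeq table of GRCm38.p6.

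Groups came from sample titles. Differences were tested in R 4.3.3 with limma 3.58.1 (lmFit, eBayes, unpaired, two-sided, prior df 4.74) with Benjamini-Hochberg adjustment over all rows, checked on simulated data. The simulation drew independent noise of equal spread on every array, so it could not check the fit for an array that stands apart. Intervals are 95%. Array number, 3 a group, limits precision: the median 95% interval reached 0.29 to each side. Members and lists were chosen with earlier results of these data known. Values on every array are given for the 12 members of smallest p, the member of smallest p of each complex and 14 members picked for their role; relatives and partners are named by smallest p, and others of them were added for their role with their values seen. Alternatives were other normalizations, priors, filters, row choices, a replicate block and each array left out.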

Additional observations from a re-analysis of the deposited data

How the results depend on the processing

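No member passed an adjusted p of 0.05 in limma under any of the 16 alternatives, and none of the relatives and partners did. The lowest adjusted p of a member whose arrays are given was 0.0566, for Eif5b with array weights, which weighted miR-Control replicate 3 at 0.279 and miR-128 replicate 1 at 2.12. Rows passing over the whole table, 0 otherwise, were 24 with array weights and 4 among rows above the median level. Members at an unadjusted p under 0.05, 5 in the reported fit, were 14 with array weights and 3 to 9 when single arrays were left out, lowest without miR-128 replicate 3 and highest without miR-Control replicate 3. The median over members stayed between -0.15 and -0.04 and lower members between 29 and 36. The eIF4E median ranged from -0.16 to 0.00124 with single arrays left out, and the eIF4A, eIF4B and eIF4H median from -0.05 to 0.04. Of 21 members whose arrays are given, 16 kept their sign throughout. Eif1 turned to -0.00321 with centred arrays and -0.056 with array weights, and Eif5a2 to 0.00985 with array weights. With single arrays left out, Eif1 ranged from -0.12 to 0.14, Eif2s3y from -0.10 to 0.22, Eif4g1 from -0.13 to 0.10, Eif5a from -0.21 to 0.14 and Eif5a2 from -0.14 to 0.080. The cause of these shifts was not tested. Same-numbered arrays correlated in their deviations at -0.00278, 0.17 and 0.05, and differently numbered ones at -0.24 to 0.19. With 3 arrays a group, these correlations cannot decide whether the numbers pair the samples. The replicate block gave 5 members at an unadjusted p under 0.05 and 0 passing.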
